A study of Saccharomyces cerevisiae with 34 samples.

Results

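Newly made RNA was compared between kin28is and wild-type (WT) budding yeast that had both received the inhibitor CMK. The members are the 6 nascent RNA libraries whose labels name CMK and either strain, 4 of kin28is and 2 of WT, out of 34 libraries in the series. All strains were Saccharomyces cerevisiae BY4741, a haploid laboratory strain, grown in medium lacking histidine. The kin28is strain carries an inhibitor-sensitive allele of KIN28 and the WT strain does not, and the labels give no count of independent kin28is clones. Because both strains received CMK, the comparison asks what the allele adds in the presence of the same irreversible inhibitor. Replicate 1 of each strain received 2 µM CMK, and WT replicate 2 and kin28is replicates 2 to 4 received 5 µM, each for 1 h. All 6 cultures were labelled with 5 mM 4-thiouracil (4tU) for the last 6 min. Labelled cells of the fission yeast Schizosaccharomyces pombe were added to every culture before lysis, 1 for every 6 S. cerevisiae cells, and labelled RNA was biotinylated and pulled down on streptavidin. The 5 nascent DMSO libraries of the same strains and a pulled-down WT DMSO library made without 4tU served as controls.

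Kin28 is the kinase of the general transcription factor TFIIH. With its cyclin Ccl1 and the assembly factor Tfb3 it phosphorylates the C-terminal domain (CTD) of the largest subunit of RNA polymerase II soon after initiation. That phosphorylation recruits the mRNA capping enzymes and helps to release Mediator from the promoter. 4tU enters RNA only while it is being made, so pulled-down RNA mostly reports synthesis over a few minutes, together with any RNA that sticks to the beads without label.

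The sequences of 3 promoters are shown because their genes stood at the ends of the relative comparison described below or hold the binding site of a factor named there. OSI1, ADE17 and MOH1 are all protein-coding genes, and each sequence runs from 250 bases before to 50 bases after the annotated gene start, on the coding strand, in the RefSeq assembly R64, which is the sacCer3 build. The OSI1 window is chrXI:304864-305163 on the plus strand, ADE17 is chrXIII:509231-509530 on the minus strand and MOH1 is chrII:126578-126877 on the plus strand. Capitals mark the Yap1 site TTACTAA or its reverse complement in OSI1 and MOH1, and the Bas1 and Gcn4 site TGACTC in ADE17.
OSI1: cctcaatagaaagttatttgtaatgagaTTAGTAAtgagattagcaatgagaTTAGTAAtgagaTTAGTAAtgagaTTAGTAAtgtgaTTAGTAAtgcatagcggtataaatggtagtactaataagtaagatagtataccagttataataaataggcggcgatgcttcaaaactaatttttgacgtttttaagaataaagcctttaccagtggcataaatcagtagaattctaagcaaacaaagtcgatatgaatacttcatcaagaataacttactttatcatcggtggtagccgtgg
ADE17: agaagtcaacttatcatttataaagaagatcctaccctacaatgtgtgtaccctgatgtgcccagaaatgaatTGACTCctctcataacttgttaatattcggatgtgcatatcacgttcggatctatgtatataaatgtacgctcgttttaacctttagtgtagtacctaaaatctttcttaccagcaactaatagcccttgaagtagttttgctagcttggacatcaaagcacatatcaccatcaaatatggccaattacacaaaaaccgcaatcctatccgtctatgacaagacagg
MOH1: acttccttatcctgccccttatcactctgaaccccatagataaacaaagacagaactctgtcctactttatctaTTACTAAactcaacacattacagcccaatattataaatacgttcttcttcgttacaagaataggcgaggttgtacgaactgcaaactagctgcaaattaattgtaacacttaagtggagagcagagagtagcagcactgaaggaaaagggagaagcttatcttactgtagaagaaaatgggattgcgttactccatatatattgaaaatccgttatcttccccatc

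The 6 libraries differed in depth and in how much S. cerevisiae RNA they held. They contained 323258 to 13889354 S. cerevisiae reads and 303231 to 2496417 S. pombe reads. The replicate 1 libraries, which are also the 2 µM libraries, stood apart. They had 45.8 S. cerevisiae reads per S. pombe read in WT and 13.9 in kin28is, against 4.15 in WT replicate 2, and the replicate 1 DMSO libraries were likewise high, at 44.7 in WT and 32.2 in kin28is. Each kin28is library was therefore compared with the WT library of its own dose, and the number of the replicate and the dose cannot be told apart. Transcripts of the a mating type that BY4741 carries summed to 1063 to 2880 counts per 1000000 S. cerevisiae reads (CPM) over 6 genes. Of the alpha mating type, 2 genes passed the filter on low counts, at a sum of 40.5 to 145 CPM. URA3, deleted in BY4741, was at 0 and 2.09 CPM in WT and at 0.722, 359, 10.5 and 2.89 CPM in kin28is replicates 1 to 4, so kin28is replicate 2 went against the strain label at that gene. URA3 was also at 355 CPM in the WT DMSO library without 4tU. Of the 4 strain marker loci URA3, HIS3, LEU2 and MET17, 2 passed the filter on low counts, URA3 among them. Those 2 together summed to 48.7 and 41.7 CPM in WT and to 34.8, 578, 144 and 139 CPM in kin28is. Their sum was 408 CPM in the library without 4tU. Without kin28is replicate 2, 20 of the 22 genes called in the relative comparison described below still passed, and OSI1 and PSA1 did not.

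KIN28 itself, on chrIV:267698-268699 with 2 coding parts, was read in all libraries. Its level was 55.9 CPM in WT and 88.8 CPM in kin28is at 2 µM. At 5 µM it was 46.8 CPM in WT and 77.3, 28.9 and 46.3 CPM in the 3 kin28is libraries. The kin28is libraries lay on both sides of WT, and the relative log2 fold change was 0.17 ± 0.38 (SE; adjusted p = 0.862, edgeR's quasi-likelihood test). Its sign turned at 5 µM alone, where it was -0.09. KIN28 RNA therefore gives no check of the strain labels, since the allele changes the protein and is not a deletion.

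Nascent RNA per S. pombe RNA was lower in kin28is than in WT under CMK in every library. At 2 µM there were 45.8 S. cerevisiae reads per S. pombe read in WT and 13.9 in kin28is, 3.30-fold lower. At 5 µM this ratio was 4.15 in WT, and 0.513, 0.509 and 0.277 in kin28is replicates 2, 3 and 4. Those values were 8.09-fold, 8.16-fold and 14.99-fold lower than WT. The 2 strains did not overlap at either dose. The mean log2 difference from WT at the same dose was -2.92 ± 0.90 (SD, n = 4), or 7.56-fold, and 3 of these 4 differences share 1 WT library. An exact two-sided permutation test of strain labels within dose gave p = 0.125, which is the smallest value that this design allows. Without matching for dose the log2 difference was -3.78 and the exact p was 0.267, where the smallest possible value is 0.0667. Leaving out WT replicate 2 leaves the 2 µM pair alone, at -1.72. Less RNA per cell and fewer S. cerevisiae cells per added S. pombe cell cannot be told apart in these values. Total RNA libraries of the same strains under CMK had 3.85 S. cerevisiae reads per S. pombe read in WT and 3.61 in kin28is at 2 µM. At 5 µM they had 2.27 in WT and 1.35 in kin28is, from 1 library per strain and dose. Those ratios also combine RNA per cell with cell number, and the share of each was not tested.

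**Figure D1:**
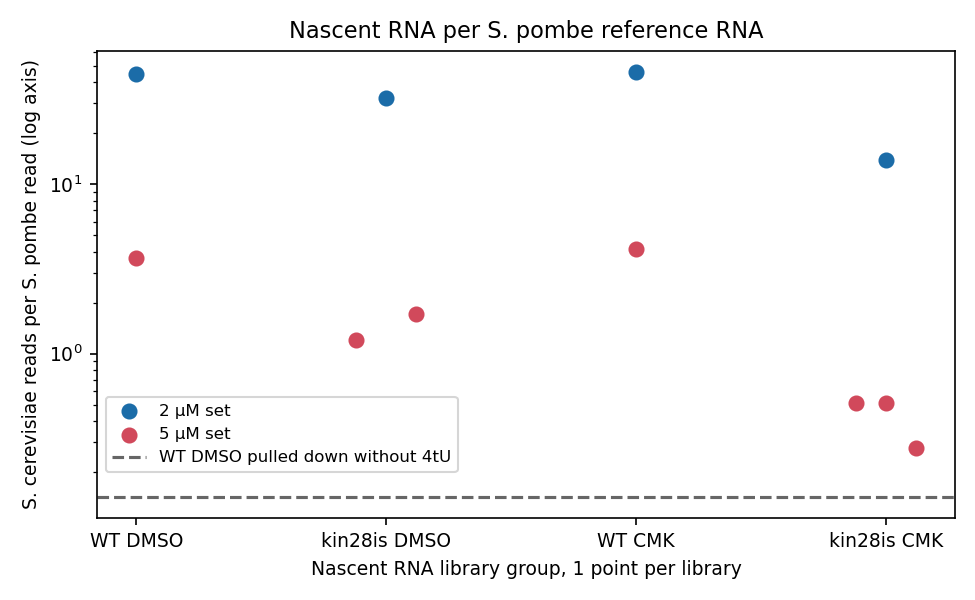
S. cerevisiae reads per S. pombe read in each nascent library on a log axis, by strain and treatment. Blue points are the 2 µM set and red points the 5 µM set, and the dashed line is the pulled-down WT DMSO library without 4tU, at 0.144. The 3 kin28is CMK libraries at 5 µM, 0.277 to 0.513, are the points nearest to that line.

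The strain difference was smaller without inhibitor. Under DMSO, kin28is lay below WT by 1.39-fold in the 2 µM set and by 3.02-fold and 2.11-fold in replicates 2 and 3 of the 5 µM set. The difference under CMK exceeded the difference under DMSO by 2.37-fold, 2.68-fold and 3.87-fold for numbers 1, 2 and 3. WT itself changed by 1.03-fold and 1.14-fold between DMSO and CMK, upward both times. The DMSO controls used the same replicate 2 WT library for both later kin28is libraries.

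Part of the RNA in the kin28is libraries was at the level found without label. The library without 4tU had 0.144 S. cerevisiae reads per S. pombe read. That is 1.03% of the ratio in kin28is replicate 1, 28.0% and 28.2% of the ratios in replicates 2 and 3, and 51.9% of the ratio in replicate 4, but 0.314% and 3.46% of the WT ratios. After that ratio was subtracted from every library, kin28is was 3.32-fold, 10.8-fold, 10.985-fold and 30.1-fold below WT. In kin28is replicate 4, 1264 of 5195 genes (24.3%) were at or under their level in the unlabelled library, against 18, 362 and 200 genes in replicates 1 to 3 and 8 and 43 genes in WT. This unlabelled library is a single library, so its own spread is unknown. The part of RNA captured without label in the gene-level values was not tested.

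The lower level extended over nearly the whole genome. Scaled to S. pombe reads, 4758 of 5195 genes were lower in kin28is (91.6%) and 1 was higher (0.0192%), at an adjusted p under 0.05 in edgeR's quasi-likelihood test with labelled dose as a term. Every gene on this scale carries the same library ratios, so these calls are not independent of the ratio difference described above. That difference had an exact p of 0.125 in the permutation test within dose. The median log2 fold change was -2.58, or 5.96-fold. By library the median was 3.13-fold lower in kin28is replicate 1 and 7.07-fold, 7.67-fold and 14.9-fold lower in replicates 2 to 4. Of all genes tested, 4997 (96.2%) lay below the WT library of their dose in all 4 comparisons, and 3 lay above it in all 4 (0.0577%). With the replicate number as a block, 886 genes were lower and 1 was higher. Replicates 3 and 4 exist only in kin28is, so in these 6 libraries the block compares the strains in replicates 1 and 2 alone. Without WT replicate 2, which leaves 1 WT library at 2 µM, no gene passed (502 had an unadjusted p under 0.05), and none passed without the dose term (29 had an unadjusted p under 0.05).

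**Figure D2:**
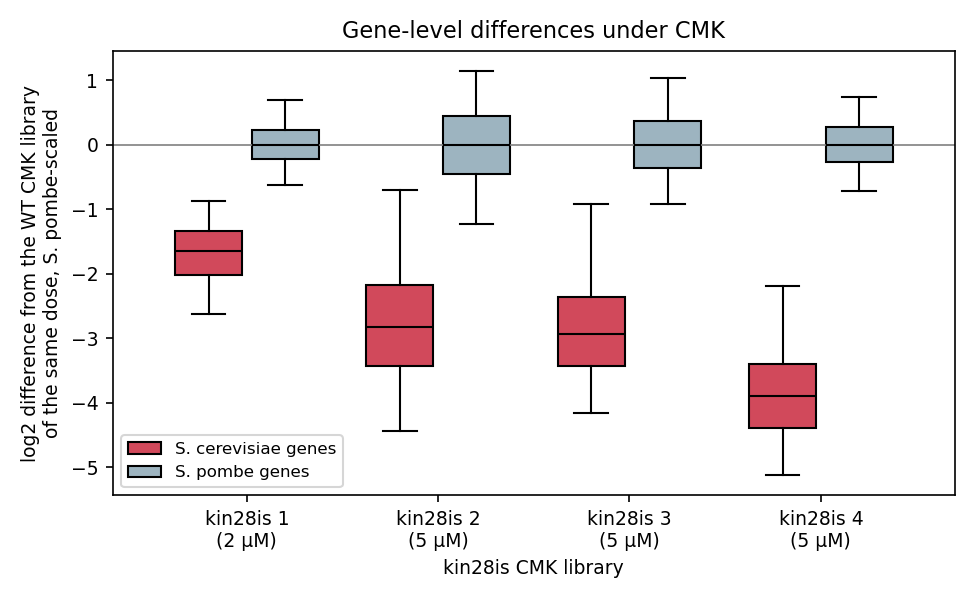
Log2 difference of each kin28is CMK library from the WT CMK library of the same dose, over 5195 S. cerevisiae genes (red) and 4797 S. pombe genes (grey). Boxes span the quartiles with the median as a line and whiskers span the 5th to the 95th percentile. The S. cerevisiae medians are -1.65, -2.82, -2.94 and -3.90 and the S. pombe medians lie at 0 within 0.01. Scaling to S. pombe reads itself places the S. pombe medians there.

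S. pombe genes were tested in the same way, scaled to S. pombe reads. That scaling removes any general difference among them, so these values do not check how much S. pombe RNA was added or recovered. They show only how far single S. pombe genes differed between the strains. On the same scale, 3 of 4797 S. pombe genes passed the test between the strains (0.0625%), all lower, and 489 had an unadjusted p under 0.05 (10.2%). The spread of single S. pombe genes was widest in kin28is replicate 2, where the 5th and 95th percentiles of the log2 difference were -1.22 and 1.14. All 3 calls were lost when any library but kin28is replicate 2 was left out, and 7 genes passed without that library.

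The 436 genes that were not called in either direction were mostly low. Their median level in WT was 8.09 CPM, against 109 CPM for called genes, and their median log2 fold change was -1.24. At 5 µM, 177 of them were at or under the unlabelled level in at least 1 kin28is library. The gene called higher was URA3, with a log2 fold change of 2.99. That value rests on kin28is replicate 2, and without this library it was -0.45. The 3 genes above WT in all 4 comparisons were MCH2, LSO1 and DCV1, which were named after their values were seen. Under CMK they had at most 0.523 CPM in WT and 1.03 to 61.9 CPM in kin28is, and 7.55 to 70.5 CPM in the library without 4tU. None passed the test, at adjusted p values of 0.190, 0.252 and 0.320 in edgeR's quasi-likelihood test.

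Among called genes with a mean of at least 100 CPM in a strain, those furthest below WT on the S. pombe scale were AAH1, HHT1, OSI1, PSA1, ADE17, ITR1, YJR146W and ZWF1. Their fitted fold changes ran from 21.0-fold to 40.5-fold, each at an adjusted p under 0.0001. HPT1, COS12, CWP1 and THO1, named after their values were seen, were under that CPM level and 21.9-fold to 29.0-fold below WT. AAH1, on chrXIV:359596-360639, encodes adenine deaminase. It had 7717 reads per 1000000 S. pombe reads in WT and 142 in kin28is at 2 µM, and 222 in WT and 14.3, 8.01 and 2.40 in kin28is at 5 µM. The strains did not overlap at either dose, but the unlabelled library held 6.87 such reads, more than kin28is replicate 4. AAH1 also lay below WT under DMSO, by a log2 difference of -2.91. OSI1, on chrXI:305114-305884, is a gene of unknown molecular function that oxidative stress induces through the transcription factor Yap1. It had 97764 reads per 1000000 S. pombe reads in WT and 21079 in kin28is at 2 µM, and 5150 in WT and 84.1, 73.4 and 46.1 in kin28is at 5 µM. Here the unlabelled level of 5.06 was well under every kin28is library. ZWF1 encodes glucose-6-phosphate dehydrogenase, the entry enzyme of the pentose phosphate pathway, and ITR1 the main inositol transporter.

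HHT1 encodes histone H3, as does HHT2, and how reads were assigned between these genes is not known. HHT1 had 543 CPM in WT and 78.6 CPM in kin28is at 2 µM. At 5 µM it had 59.5 CPM in WT, 30.9 CPM in kin28is replicate 2, and 0 in replicates 3 and 4, so its fitted fold change is no bound. The WT DMSO libraries differed widely at this gene, with 463 and 5949 CPM.

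**Figure D3:**
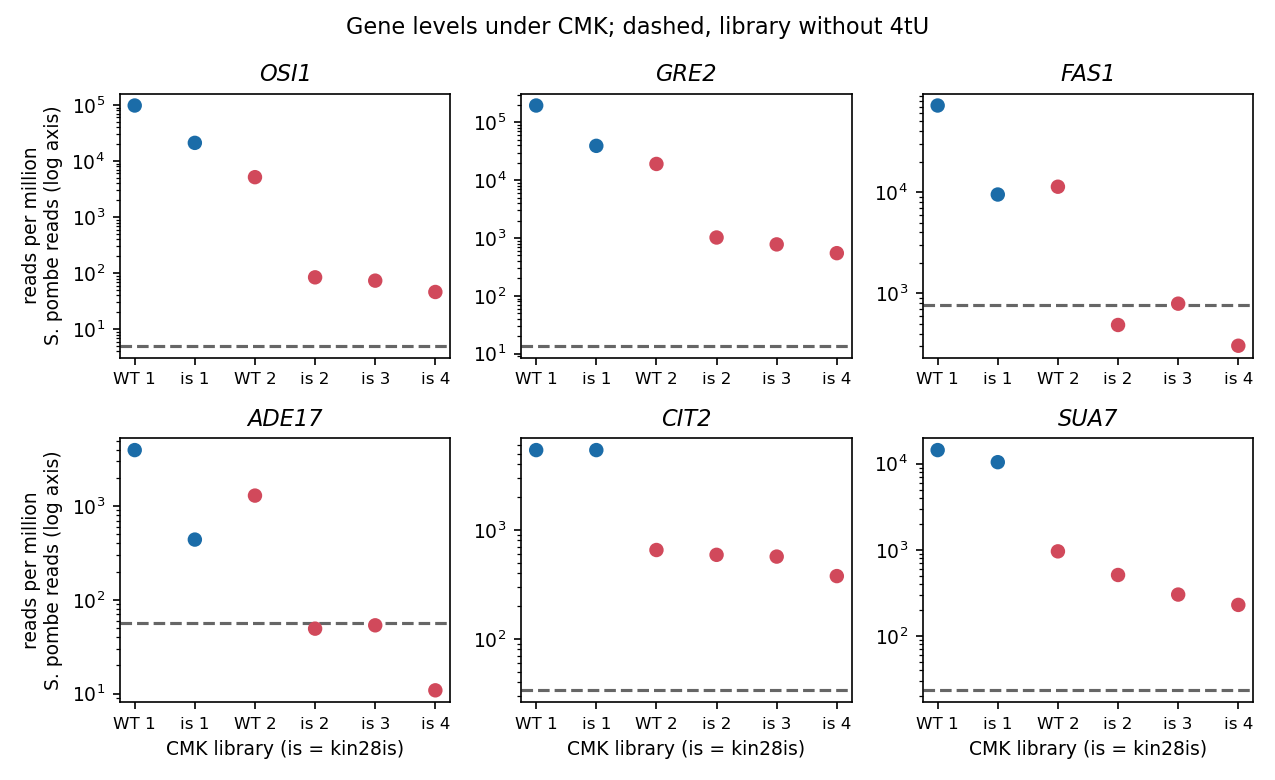
Reads per 1000000 S. pombe reads of 6 genes in each CMK library on log axes, with the library without 4tU as a dashed line. Blue points are 2 µM and red points 5 µM libraries. OSI1, GRE2, CIT2 and SUA7 stay above the dashed line in every library, while ADE17 lies under it in all 3 and FAS1 in 2 of the 3 kin28is libraries at 5 µM.

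Relative to the other S. cerevisiae genes, few genes stood apart. With libraries scaled to S. cerevisiae reads, 16 of 5195 genes were lower in kin28is (0.308%) and 6 were higher (0.115%), and 782 had an unadjusted p under 0.05 (15.1%). This scale removes the general difference described above, so a gene higher here can still have less RNA per S. pombe read. All 22 genes lay on 1 side of WT in each dose-matched comparison, which held in the lower direction for 20.6% and in the higher direction for 18.3% of all genes. The calls were made in these same libraries, so this is no separate support for them. The counts depended on single libraries. They were 35 lower and 26 higher without WT replicate 1, 18 and 16 without kin28is replicate 1, 29 and 21 without kin28is replicate 2, 8 and 4 without kin28is replicate 3, and none without WT replicate 2 (152 had an unadjusted p under 0.05). Scaling by library total alone, which moved the median of all genes to 0.17, left 0 lower and 3 higher.

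**Figure D4:**
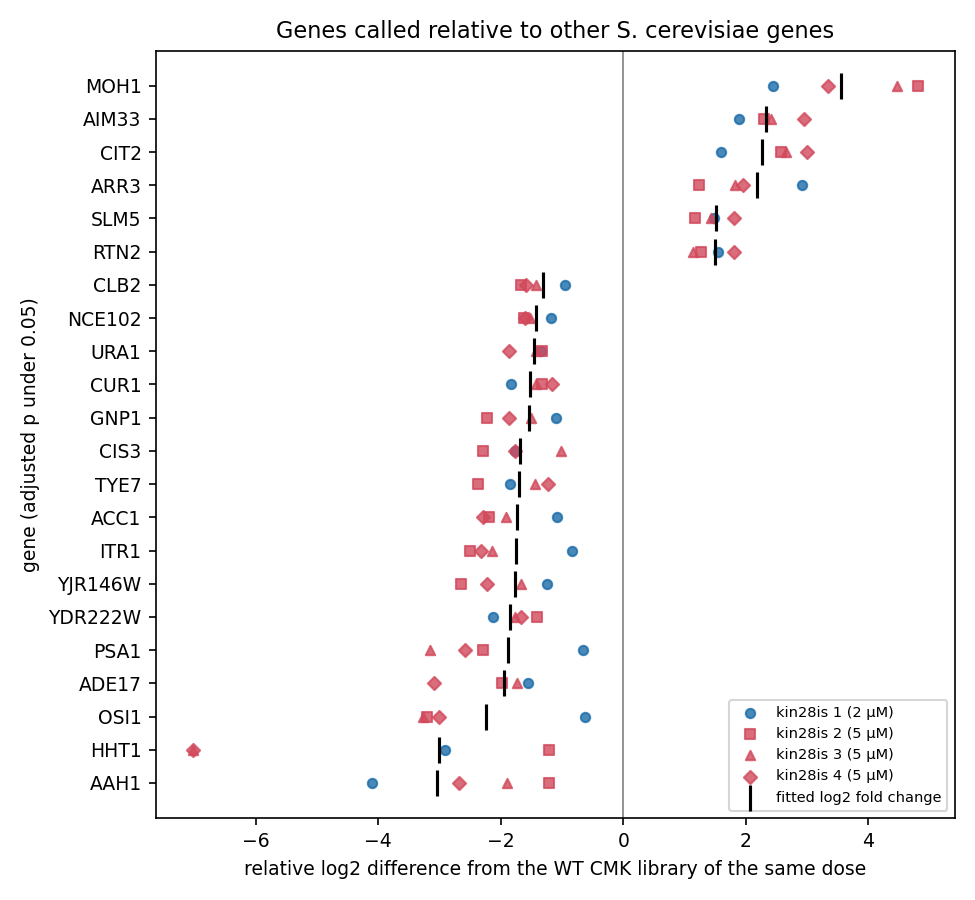
Relative log2 difference of each kin28is CMK library from the WT CMK library of its dose for the 22 called genes, with the fitted value as a bar. Circles are the 2 µM library, and squares, triangles and diamonds are the 5 µM replicates 2, 3 and 4. For OSI1 the 2 µM library, at -0.62, stands apart from the 5 µM libraries, at -3.01 to -3.27.

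Of the 16 lower genes, 5 act in purine, pyrimidine or lipid metabolism, a grouping made after the genes were known. By list, 1 of 15 purine, 1 of 11 pyrimidine and 2 of 20 lipid genes were called lower, against 0.308% of all genes. ADE17, on chrXIII:507502-509280, encodes the enzyme of the last steps to inosine monophosphate. It had 86.3 CPM in WT and 31.6 CPM in kin28is at 2 µM, and 311 CPM in WT and 95.9, 105 and 39.1 CPM in kin28is at 5 µM, a relative log2 fold change of -1.95 ± 0.33 (SE; adjusted p = 0.0323, edgeR). Kin28is stood below WT at both doses without overlap. AAH1, of purine salvage, had the largest fitted decrease among the 16 called genes, -3.04 ± 0.55 (SE). URA1, which encodes dihydroorotate dehydrogenase of pyrimidine synthesis, had a value of -1.45 ± 0.29 (SE). ACC1, which encodes acetyl-CoA carboxylase, the first committed enzyme of fatty acid synthesis, had 1563 CPM in WT and 805 CPM in kin28is at 2 µM. At 5 µM it had 2618 CPM in WT and 696, 780 and 580 CPM in kin28is, and its fitted value was -1.73 ± 0.33 (SE). ITR1 had a value of -1.75 ± 0.31 (SE). In the library without 4tU these 5 genes had 47.8 CPM for AAH1, 395 for ADE17, 463 for ITR1, 1176 for URA1 and 2410 for ACC1, in each case more than in any kin28is CMK library.

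The other lower genes served several roles. PSA1 makes GDP-mannose for glycosylation and had a relative log2 fold change of -1.88 ± 0.37 (SE). CIS3, a cell wall mannoprotein gene, had -1.68 ± 0.32 (SE), and CLB2, the main mitotic B-type cyclin gene, -1.31 ± 0.26 (SE). TYE7, a transcription factor gene of glycolysis, was at -1.70, CUR1, a factor in protein quality control, at -1.52, GNP1, a glutamine permease, at -1.53 and NCE102, a membrane protein of eisosomes, at -1.42. These 4 genes were named after their values were seen. YDR222W and YJR146W, for which no role is given here, were at -1.85 and -1.76. All 9 of these genes had a value under 0 under DMSO too, from -0.26 for YJR146W to -1.34 for YDR222W, with -0.95 for TYE7, -0.92 for CUR1, -0.89 for CIS3 and -0.68 for CLB2. All but CUR1 also had more CPM in the library without 4tU than in any kin28is CMK library. PSA1, for example, had 811 CPM without 4tU and 523, 145, 73.5 and 106 CPM in kin28is.

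OSI1 stood above the unlabelled library in every kin28is library. Its CPM was 2134 in WT and 1516 in kin28is at 2 µM, and 1240 in WT and 164, 144 and 166 in kin28is at 5 µM, against 35.3 without 4tU. Kin28is stood lower at both doses, and the log2 difference was -0.62 at 2 µM and -3.20, -3.27 and -3.01 at 5 µM. The fitted value was -2.24 ± 0.43 (SE; adjusted p = 0.0406, edgeR). The difference between the doses had an unadjusted p of 0.00221 for OSI1, and in that test of all genes none passed after adjustment (0%; 276 had an unadjusted p under 0.05, or 5.31%, and DESeq2 called 16). Under DMSO the kin28is libraries were not as low, at 1314, 800 and 596 CPM against 2260 and 783 CPM in WT. The OSI1 promoter printed above holds 5 copies of the Yap1 site on the reverse strand.

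Of the 6 higher genes, CIT2, AIM33 and ARR3 had the S. pombe-scaled values nearest to 0. CIT2, on chrIII:120946-122328, encodes the peroxisomal citrate synthase and is the classical target of the retrograde pathway from mitochondria to nucleus. It had 118 CPM in WT and 387 CPM in kin28is at 2 µM, and 157 CPM in WT and 1148, 1116 and 1357 CPM in kin28is at 5 µM. All kin28is libraries stood above WT at their dose, with a relative log2 fold change of 2.27 ± 0.38 (SE; adjusted p = 0.0323, edgeR). On the S. pombe scale its log2 fold change was -0.29 (adjusted p = 0.723, edgeR), with the 4 differences at -0.05, -0.21, -0.30 and -0.93. Its unlabelled level was 234 CPM. AIM33 encodes a protein related to cytochrome b5 reductases and was at 2.33 ± 0.34 (SE) relative and -0.28 on the S. pombe scale. ARR3, the plasma membrane exporter of arsenite, was at 2.18 ± 0.35 (SE) relative and -0.56 on the S. pombe scale. These genes lay above WT under DMSO as well, at relative log2 differences of 2.02 for ARR3, 1.01 for CIT2 and 0.97 for AIM33.

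MOH1, a gene linked to survival in stationary phase, had the largest fitted increase among the 6 called genes, 3.56 ± 0.69 (SE; adjusted p = 0.0415, edgeR), and was named after its values were seen because it had under 100 CPM on average in both strains. It had 5.69 CPM in WT and 36.2 CPM in kin28is at 2 µM, and 2.62 CPM in WT and 105, 76.1 and 33.3 CPM in kin28is at 5 µM, against 17.6 CPM without 4tU. SLM5, the mitochondrial asparaginyl-tRNA synthetase gene, was at 1.51 ± 0.29 (SE), and RTN2, a reticulon gene of the endoplasmic reticulum, at 1.501 ± 0.296 (SE). Under DMSO the relative log2 difference was 0.46 for SLM5 and 0.83 for RTN2. On the S. pombe scale MOH1 was at 1.24, and SLM5 and RTN2 were at -1.14 and -1.16, and none of the 3 passed.

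Genes of the transcription machinery were lower per S. pombe RNA, about as often as all genes (91.6%). All 11 TFIIH genes were lower on the S. pombe scale, with a median of 5.32-fold against 5.96-fold for all genes. With the replicate block, which left 886 of 5195 genes, no TFIIH gene passed, and without WT replicate 2 no gene of any list passed. In relative terms the median of the TFIIH genes was 0.17, and 4 of 11 lay above WT in all 4 comparisons (background 18.3%). They include CCL1, the cyclin of Kin28, at 0.58 ± 0.26 (SE), and RAD26, a repair factor listed with TFIIH, at 0.79 ± 0.28 (SE). Neither passed the relative test. All 13 genes of other CTD kinases and phosphatases were lower on the S. pombe scale and had a relative median of 0.04, and 2 of them passed on the S. pombe scale with the block. Among them FCP1, the CTD phosphatase, was at -0.99. The 12 RNA polymerase II subunit genes had a relative median of -0.29, with 5 below WT in all comparisons, against 20.6% of all genes, and none above, against 18.3%. Without WT replicate 2 their median was -0.08. RPO21, which encodes the subunit that carries the CTD, was at -0.64 ± 0.34 (SE).

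Other factors of RNA polymerase II had fitted medians near 0. Capping and cap-binding genes were at -0.08, among them STO1, the large subunit of the nuclear cap-binding complex, at -1.01. By library the capping median was 0.12 at 2 µM and -0.32, -0.46 and -0.41 in the 5 µM replicates 2 to 4. Termination and 3' end genes were at 0.00, with the Nab3 partner gene NRD1 at -1.17, and elongation factor genes were at -0.05. With libraries scaled by total alone the capping and elongation medians turned to 0.09 and 0.11, and without kin28is replicate 2 they were -0.18 and -0.13. Without WT replicate 2 the capping median was 0.12. Of 31 Mediator and general factor genes without TFIIH, 29 were lower on the S. pombe scale, against 91.6% of all genes. With the block 6 were, against 886 of all 5195 genes. The relative median of this list was 0.09, or 0.22 without WT replicate 2. SUA7, which encodes TFIIB, stood above WT in each comparison. It had 313 CPM in WT and 747 CPM in kin28is at 2 µM, and 231 CPM in WT and 996, 596 and 830 CPM in kin28is at 5 µM, a relative value of 1.41 ± 0.33 (SE; adjusted p = 0.0803, edgeR). MED6, a Mediator head subunit gene, was at 1.07 ± 0.29 (SE). Neither passed in relative terms, and on the S. pombe scale they were 2.23-fold and 2.74-fold below WT without passing.

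G2/M genes and histone genes had relative medians under 0, while G1/S and M/G1 genes lay near 0. Of 19 G2/M genes of the CLB2 cluster, 15 were below WT in all 4 comparisons, against 20.6% of all genes, and the relative median was -0.80, with 1 member called. SWI5, a transcription factor of late mitosis, was at -1.32 ± 0.30 (SE), and HST3, a histone deacetylase gene of the same cluster, at -1.14 ± 0.28 (SE). Under DMSO the list also had a negative median, -0.55. G1/S genes had a relative median of -0.06 and M/G1 genes of -0.14, which turned to 0.10 and 0.02 when libraries were scaled by total alone. All 10 histone genes had a fitted value under 0, with a median of -0.86, and 6 lay below WT in all comparisons, against 20.6% of all genes. The histone median was -0.13 in the 2 µM library and also -0.13 in the fit without WT replicate 2, and with the block it was -0.53. HTB1, a histone H2B gene, was at -0.85 ± 0.32 (SE), and HTZ1, the H2A variant gene, at -1.22 ± 0.40 (SE). Histone transcripts summed to 785 to 1176 CPM in kin28is and 1962 CPM in WT at 5 µM, but to 3806 CPM in kin28is and 3605 CPM in WT at 2 µM. Their level without 4tU was 111% of the mean kin28is level at 5 µM on the S. pombe scale.

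Genes for making ribosomes had negative relative medians. Of 82 ribosome biogenesis genes, all were lower on the S. pombe scale, against 91.6% of all genes. With the block 5 of them passed there, against 886 of all 5195 genes. In relative terms their median was -0.46, and 42 were below WT in every comparison and none above, against 20.6% and 18.3% of all genes. NSR1, a nucleolin, was at -1.57 ± 0.38 (SE), NOP15, a factor of the large subunit, at -1.27 ± 0.30 (SE), and UTP4, of the small subunit processome, at -0.98 ± 0.26 (SE). The DMSO median of this list was -0.41. The 19 genes of RNA polymerases I and III had a relative median of -0.54, with 13 below WT throughout (background 20.6%), among them RPC25 at -1.35 and RPA43 at -0.86. The 25 translation factor genes had a median of -0.37, with 15 below throughout (background 20.6%), and TEF4, an elongation factor 1B subunit gene, was at -1.48 ± 0.33 (SE).

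Cytosolic ribosomal protein genes had positive relative medians at 5 µM and a negative one at 2 µM. Of 132 genes tested, 116 were lower on the S. pombe scale, with a median of 3.99-fold against 5.96-fold for all genes. Only 59 passed without kin28is replicate 2, where 4420 of all 5199 genes did, and 63 without kin28is replicate 3, where 3757 of 5191 did. With the block 7 passed, against 886 of all 5195 genes. Their relative median was 0.46, and 37 lay above WT in all 4 comparisons and 4 below, against 18.3% and 20.6% of all genes. By library the median was -0.16 at 2 µM and 0.85, 1.31 and 0.32 in the 5 µM replicates 2 to 4. RPS30A, of the small subunit, had 79.4 CPM in WT and 168 CPM in kin28is at 2 µM, and 81.3 CPM in WT and 371, 299 and 297 CPM in kin28is at 5 µM, a fitted value of 1.44 ± 0.30 (SE; adjusted p = 0.0519, edgeR). RPL37A, of the large subunit, was at 1.83 ± 0.44 (SE). No member passed the relative test. The list summed to 145756 CPM without 4tU and 29070 to 77273 CPM in the CMK libraries, and its unlabelled level was 78.8% of the mean kin28is level at 5 µM, against 33.2% for all genes. Paired ribosomal protein genes have near-identical copies, so values of single genes are uncertain. The 66 mitochondrial ribosomal protein genes, by contrast, had a relative median of 0.06, or 0.24 without WT replicate 2, and all were lower on the S. pombe scale (12 with the block).

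Yap1 targets, genes of the oxidative and xenobiotic response, were the list with the least unlabelled RNA. Their level without 4tU was 7.23% of the mean kin28is level at 5 µM. Of 26 genes tested, 24 were lower on the S. pombe scale, near the 91.6% of all genes, with a median of 8.93-fold. With the block 1 passed there, against 886 of all 5195 genes. In relative terms 10 lay below WT in all comparisons, against 20.6% of all genes. Their relative median was -0.46, at 0.04 in the 2 µM library and -0.98, -0.95 and -0.69 in the 5 µM libraries, and it turned to 0.05 without WT replicate 2. GRE2, a reductase gene, had 4258 CPM in WT and 2818 CPM in kin28is at 2 µM, and 4590 CPM in WT and 1989, 1525 and 1976 CPM in kin28is at 5 µM, a fitted value of -1.21 ± 0.36 (SE; adjusted p = 0.128, edgeR). Members differed: OYE2, an NADPH dehydrogenase gene, was at -1.26, while TRR1, thioredoxin reductase, and FLR1, a drug exporter, were at 0.05 and 0.02. OYE2, TRR1 and FLR1 were named after their values were seen. The Yap1 site stood in the promoter window of 10 of 26 listed genes (38.5%) and in 7.82% of 5087 windows, searched on both strands. Of the 22 genes called in relative terms, OSI1, which was lower, and MOH1 and SLM5, which were higher, hold it.

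Other stress genes gave mixed values. Of 27 targets of Msn2/4 and Hsf1, 26 were lower on the S. pombe scale, against 91.6% of all genes. With the block 4 were, against 886 of all 5195 genes. The relative median of these targets was -0.42, or -0.27 without kin28is replicate 2, -0.75 with the block and -0.73 without WT replicate 2. It was -0.74, -1.03, -0.45 and 0.23 in kin28is replicates 1 to 4. SSA1, a cytosolic Hsp70 gene with a near-identical copy, was at -1.36 ± 0.36 (SE), its partner YDJ1, an Hsp40, at -1.17 ± 0.31 (SE), and TSL1, of trehalose synthesis, at -1.02 ± 0.26 (SE). Pleiotropic drug resistance genes had a relative median of -0.05, and 12 of 14 were lower on the S. pombe scale, or 2 with the block. Scaling by total alone turned that median to 0.11, and leaving out WT replicate 2 to 0.08.

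Purine and lipid synthesis lists had negative relative medians, with the unlabelled level close by. Of 15 purine genes, 11 were below WT in all comparisons and 1 above, against 20.6% and 18.3% of all genes, with a relative median of -0.65 against 0.19 under DMSO. Without WT replicate 2 the purine median was -0.31 and the lipid median -0.22. ADE4, the entry enzyme of the pathway, was at -1.11 ± 0.29 (SE), and HPT1, of purine salvage, had 55.4 CPM in WT and 30.5 CPM in kin28is at 2 µM, and 67.7 CPM in WT and 0, 15.8 and 14.5 CPM in kin28is at 5 µM. TGACTC stood in the windows of 8 of 15 purine genes (53.3%) and in 8.30% of all windows, and the ADE17 promoter printed above holds 1 copy. Of 20 genes of fatty acid and phospholipid synthesis, 13 were below WT throughout (background 20.6%), with a relative median of -0.60 against -0.02 under DMSO. FAS1, a subunit of fatty acid synthase, was at -1.35 ± 0.34 (SE), with 5354 CPM without 4tU and 680 to 1552 CPM in kin28is. The unlabelled level was 53.8% of the mean kin28is level at 5 µM for the purine list and 84.5% for the lipid list.

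Remaining metabolic lists had medians nearer to 0. Gcn4 amino acid genes had a relative median of -0.29, with 17 of 39 below WT throughout and 5 above (background 20.6% and 18.3%), and HIS1, of histidine synthesis, at -1.35 ± 0.30 (SE). Pyrimidine genes were at -0.33, proteasome genes at -0.27 with PUP1 at -1.25, mRNA decay factors at -0.17 with the 5' exonuclease gene XRN1 at -1.04, and glycolysis genes at -0.20 with the hexokinase gene HXK2 at -1.16. Without WT replicate 2 the proteasome, decay and glycolysis medians were 0.04, -0.06 and -0.51, without kin28is replicate 2 the decay median was -0.10, and with the block the glycolysis median was -0.37. Ergosterol genes, cell wall genes and phosphate genes were at -0.16, -0.16 and -0.11, the last turning to 0.04 when scaled by total alone. Genes of the TCA cycle and respiration were at -0.01, or 0.15 when scaled by total alone, with CIT1, the mitochondrial citrate synthase, at 1.33 ± 0.31 (SE), in the same direction as CIT2. Sulfate and methionine genes were at 0.03, and hexose transport genes at 0.28, but with the replicate block these turned to -0.12 and -0.37, and without WT replicate 2 to -0.42 and -0.41.

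**Figure D5:**
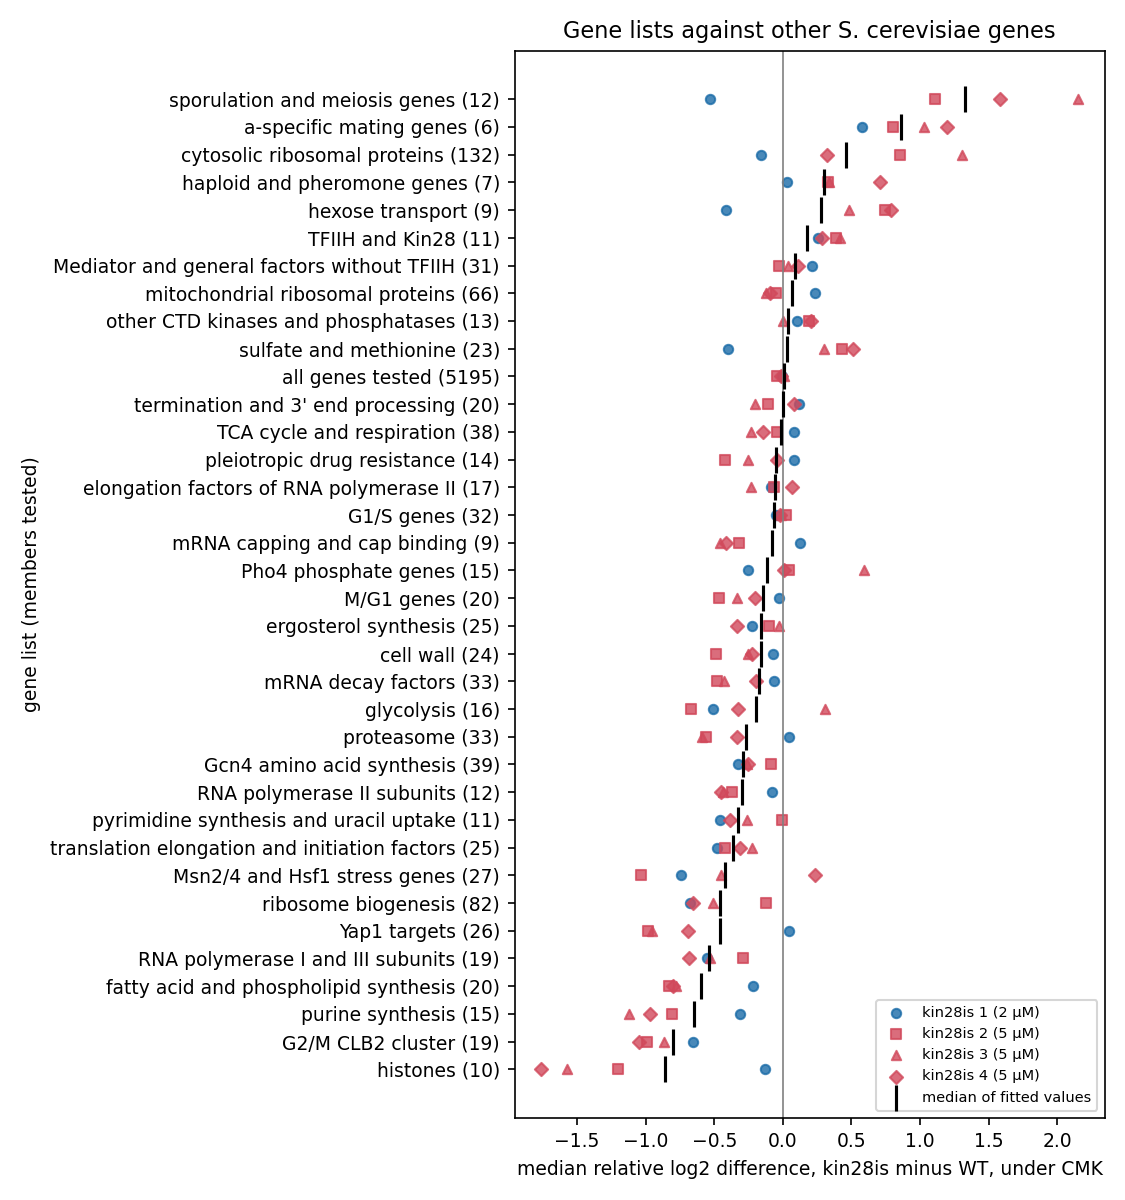
Median relative log2 difference between kin28is and WT under CMK for each gene list with 5 or more genes tested, by kin28is library (symbols) and for the fitted values (bars). Blue is 2 µM and red 5 µM. Histone, G2/M, purine and lipid genes lie to the left, at -0.86 to -0.60, and cytosolic ribosomal protein, a-specific and sporulation genes to the right, at 0.46 to 1.33.

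Mating and meiosis genes were at the upper end. Of 6 a-specific genes, which mark the mating type of the strain, 5 lay above WT in all comparisons (background 18.3%), with a relative median of 0.86 against 0.48 under DMSO. BAR1, a pheromone protease gene, was at 0.87 ± 0.26 (SE) and MFA2, an a-factor gene, at 1.05 ± 0.34 (SE). Haploid and pheromone genes were at 0.30, or 0.03 without WT replicate 2. Of 12 sporulation genes, 5 were lower on the S. pombe scale and 7 did not pass, against 91.6% of all genes lower. With the block 1 was lower, against 886 of all 5195 genes. The sporulation list had a relative median of 1.33. It summed to 117 to 152 CPM in WT and in kin28is at 2 µM, 346 to 536 CPM in kin28is at 5 µM and 607 CPM without 4tU. Without WT replicate 2 the sporulation median was -0.77, and with the block it was 0.65. The 2 alpha-specific genes tested also had more CPM without 4tU, 176, than in any CMK library.

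The relative difference was ordered by the level of the genes. Genes were ranked by mean CPM over the 6 libraries and divided into 5 groups of 1039. The relative median was 0.24 in the lowest group and -0.22 in the highest, and 71.1% and 97.7% of their genes were lower on the S. pombe scale. In kin28is replicate 4, 44.7% of the lowest group and 18.5% of the highest were at or under the unlabelled level. Ranked by length instead, the relative median was 0.03 in the shortest group and -0.11 in the longest.

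No single gene passed the test of the strain difference under CMK against that under DMSO. Over the 16 nascent WT and kin28is libraries, none of 5217 genes passed on the S. pombe scale (0%; 158 had an unadjusted p under 0.05 in edgeR, or 3.03%, and DESeq2 called none), with a median log2 value of -1.67, or 3.19-fold lower. In relative terms none passed either (0%; 316 had an unadjusted p under 0.05 in edgeR, or 6.06%, and DESeq2 called 1). Of the 16 genes called lower in relative terms under CMK, all but HHT1 had a negative value here, from -1.73 for ADE17 and -1.57 for OSI1 to -1.04 for AAH1, -0.81 for URA1, -0.63 for CLB2 and -0.43 for YDR222W. HHT1 stood at 2.55, with a strain difference of -5.49 under DMSO and -3.004 under CMK. The 6 genes called higher ran from 0.15 for ARR3 to 2.47 for MOH1, with 1.62 for CIT2 and 1.61 for AIM33. The genes called lower and higher were chosen by their strain difference under CMK, which is part of this value. Its sign in them is therefore no separate support. Without kin28is CMK replicate 1, 36 genes passed in relative terms. At 5 µM alone, 18 genes passed on the S. pombe scale.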

How the data were processed

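Read counts per gene for both yeasts were deposited by the authors as whole numbers, without scaling, for 34 libraries. The build sacCer3 and the tools HTSeq 0.6.0, STAR 2.3.0 and CASAVA 1.8.2 appear in the submitters' processing notes. The use of strand in counting and the assignment of reads to a species are not given in the sources used here, so overlapping, antisense and duplicated genes are uncertain.

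S. cerevisiae genes were tested with edgeR 4.0.16 in R 4.3.3 (quasi-likelihood, filterByExpr with a minimum count of 10, labelled dose as a term, Benjamini-Hochberg at 0.05). Library size was the S. pombe total or the S. cerevisiae total, each with TMM factors from the same species. SEs are in log2 units. Differences of single libraries are of log2(level + 0.5). The fit across strains and treatments used 16 libraries. Alternatives included DESeq2 1.42.0, other filters and scalings, and leaving out each library. The procedure was run on simulated counts drawn independently for each library. On the S. pombe scale these gave every kin28is library the same general difference from WT. Deviations shared by same-numbered libraries within a dose were not simulated, so the run does not test how the fits handle them.

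Deviations of single nascent libraries were taken from the mean of their strain and treatment, with both doses pooled. Between same-numbered libraries of different groups, r was over 0.1 in 33 of 33 pairs on the S. pombe scale (lowest 0.107). In relative terms it was over 0.1 in 29 of 33. These deviations include the difference between the dose sets, which the dose term already models. Many pairs share libraries and are not separate checks. The r values therefore do not show that libraries deviated together within a dose. The kin28is CMK libraries of the same dose differed beyond counting noise (chi-square per degree of freedom 6.51 or more). Separate cultures are not named in the labels, and the spread behind the p-values may be technical.

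The members and gene lists were chosen with earlier results of these data known. The rule for naming genes took KIN28, then at most 8 called genes per direction and scale with at least 100 CPM in a strain and no overlap within a dose, and up to 3 genes with the smallest relative p of each list.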

Additional observations from a re-analysis of the deposited data

Results flagged for a closer look

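For 11 gene lists the relative median in the 2 µM kin28is library lay on the other side of 0 from all 3 kin28is libraries at 5 µM, each against WT at its dose. The 2 µM side is a single library per strain, and the difference between the doses was not tested for lists. The mean over the 5 µM libraries minus the 2 µM library was 2.15 for sporulation and meiosis genes, 1.08 for hexose transport, 0.985 for cytosolic ribosomal proteins, 0.814 for sulfate and methionine genes and 0.468 for Pho4 phosphate genes. It was -0.919 for Yap1 targets, -0.539 for proteasome genes, -0.518 for capping and cap-binding genes, -0.324 for mitochondrial ribosomal proteins, -0.316 for pleiotropic drug resistance genes and -0.222 for TCA cycle and respiration genes.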

How the results depend on the processing

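S. cerevisiae reads per S. pombe read stayed lower in kin28is under every alternative run. Its mean log2 difference ranged from -3.32 to -1.72 over the fits that leave out 1 library each, the latter without WT CMK replicate 2. With the replicate block it was -2.37.

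On the S. pombe scale the number of lower genes was 0 without the dose term. With the replicate block in the 6 libraries, which compares the strains in replicates 1 and 2 alone, it was 886. It ranged from 0 to 4817 when single libraries were left out, with 0 only without WT CMK replicate 2, which leaves 1 WT library that is assumed to vary like the others. The single higher gene became 0 without the dose term, in all 16 libraries with the dose term, with DESeq2 and at a minimum count of 50, and 5 in the 10 libraries at 5 µM; single libraries left out gave 0 to 1.

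Relative counts, lower and then higher, were 0 and 0 without the dose term, 18 and 27 with the replicate block, and 45 and 43 at 5 µM alone. They were 129 and 97 in all 16 libraries with the dose term, 1 and 0 there with the replicate block, and 169 and 119 in the 10 libraries at 5 µM. DESeq2 gave 124 and 107, totals without TMM 0 and 3, no filter 20 and 10, DESeq2 size factors in edgeR 19 and 10, and the 11 CMK and DMSO libraries, a choice made after seeing the data, 218 and 148. Leaving out single libraries gave 0 to 35 lower and 0 to 26 higher. All 22 genes kept their direction under all of these settings, which reuse libraries that gave the calls. With DESeq2, 21 of the 22 were called, but none without the dose term, without WT CMK replicate 2 or in all 16 libraries with the replicate block.

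The CMK difference minus the DMSO difference gave 18 genes at 5 µM on the S. pombe scale, and 0 in each fit of both doses that left out 1 CMK library. In relative terms it gave 1 with DESeq2, added after seeing the data, and 0 to 36 with single libraries left out. With the replicate block it called 0 on both scales. The 3 S. pombe genes became 0 with totals alone, 0 with the replicate block, added after seeing the data, and 0 to 7 with single libraries left out. The dose difference gave 16 genes with DESeq2 and 6 to 229 when 1 kin28is library was left out, 229 without kin28is replicate 2.

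Without WT CMK replicate 2, which leaves the 2 µM comparison, the relative medians of 11 of 37 lists changed sign, among them cytosolic ribosomal proteins at -0.16, Yap1 targets at 0.05, proteasome genes at 0.04 and hexose transport at -0.41; with totals alone 7 did. With the replicate block 5 did, G1/S genes at 0.025, TCA genes at 0.01, termination genes at -0.07, sulfate genes at -0.12 and hexose transport at -0.37. The relative value of KIN28 turned from 0.17 to -0.090 in the 4 CMK libraries and -0.094 in the 10 libraries at 5 µM, and ran from -0.094 to 0.55 with single libraries left out. URA3 on the S. pombe scale ran from -0.45, without kin28is CMK replicate 2, to 6.30. Apart from values shown by the construction of a setting, such as fewer libraries, the cause was not tested. Depth limits the 5 µM kin28is libraries most, the smallest at 323258 S. cerevisiae reads.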
